A study of Mus musculus with 4 samples.

Results

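The respiratory chain subunits described here are the nuclear genes of complexes I to V of the inner mitochondrial membrane and cytochrome c, found by annotated gene symbol among the rows of the expression table. Symbols of the NADH dehydrogenase (*Nduf*), succinate dehydrogenase (*Sdh*), ubiquinol-cytochrome c reductase (*Uqcr*), cytochrome c oxidase (*Cox*) and ATP synthase (*Atp5*) families and *Cycs* were taken, and assembly factors were left out. This gave 82 of the 19938 genes with a probe set of their own, with the brightest probe set standing for each gene. They were 35 genes of complex I, 4 of complex II, 8 of complex III, 17 of complex IV, 17 of complex V and *Cycs*. A further 5 probe sets carried the symbol of *Cox7c* or *Ndufb4* together with that of a second gene, and their values are named after neither.

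Electrons from NADH enter the chain at complex I and those from succinate at complex II, and ubiquinone carries both to complex III. Cytochrome c takes them on to complex IV, where oxygen is reduced, and the proton gradient built on the way drives ATP synthesis by complex V. Most subunits are encoded in the nucleus, while a core set in every complex but II is encoded by mitochondrial DNA. Activated T cells build more mitochondria as they begin to divide. The study treated Tc17 cells with inhibitors of complexes I and V, and the comparison here asks whether the transcripts of these complexes differ between the Tc17 and CTL programs.

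CD8+ T cells from spleen and lymph node of wild-type C57BL/6 mice were enriched by magnetic depletion of other cells, described as naive in the study's design, primed through CD3 and CD28 per its methods and differentiated in culture for 2 days. All 4 cultures contained IL-2 and blocking antibody to IFN-γ. Tc17 cultures differed from CTL (cytotoxic T lymphocyte) cultures by IL-6 and TGF-β. Each condition had 2 biological replicates with 1 Affymetrix array each. Separate mice are not stated for the replicates, so the p-values speak to the spread between these samples, which may in part be technical. Values are RMA intensities taken as log2, and differences are Tc17 minus CTL.

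The cytokine genes followed the labels. *Il17a* was at 4.09 and 3.74 in CTLs and at 6.41 and 6.21 in Tc17 cells, and *Ifng* at 10.57 and 10.08 against 5.91 and 6.24. Of 5 measured CD8 T cell markers, 4 (*Cd3d*, *Cd3e*, *Cd3g* and *Cd8a*) were higher in Tc17 cells at a limma adjusted p of at most 0.00838, although *Cd8a* missed the threshold without CTL replicate 1 (0.51) or Tc17 replicate 2 (0.63). On the 4 arrays the 5 myeloid markers lay between 2.26 and 3.03 and the 2 NK cell markers between 1.92 and 2.59, against array medians of 3.18 to 3.20. The 4 markers of B cells measured lay between 2.36 and 5.14, the 2 of CD4 T cells between 2.83 and 5.16 and 1 of erythroid cells between 2.65 and 2.85. Of these, only *Zbtb7b* of the CD4 list passed the test, at 4.97 and 5.16 in CTLs and 4.53 and 4.34 in Tc17 cells, and it did not without either replicate 2 (-0.53 without that of CTLs and -0.54 without that of Tc17 cells). The part of cell composition in the results below was not tested. In bulk RNA, fewer cells of a type and less RNA per cell cannot be told apart.

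Few transcripts of the respiratory chain passed the test between Tc17 cells and CTLs, and most differences were small and below 0. Of 81 members tested, 5 passed the threshold (limma adjusted p under 0.05), which is 6.17% of them, against 15.7% of the 14953 genes tested. *Uqcrh* was higher in Tc17 cells, which is 1.23% of the members against 8.22% of all genes. *Uqcr10*, *Uqcrq*, *Cycs* and *Atp5g1* were lower, which is 4.94% against 7.44%. The median difference was -0.10 over the members and 0.02 over all genes tested. Of the members, 57 lay below 0 and 24 above, while 6939 of all genes tested lay below 0 and 8014 above. At an unadjusted p under 0.05 there were 14 members, or 17.3%, against 27.1% of all genes. The arrays of the groups did not overlap for 49.4% of members and 54.4% of all genes. Tc17 arrays lay above both CTL arrays for 19.8% of members against 29.6%, and below both for 29.6% against 24.8%.

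The fit also gave an interval for each difference, which rests on the spread between these samples. For 65 of the 81 members the whole 95% interval of the difference lay inside a 1.5-fold change in either direction, and for 79 it lay inside a 2-fold change. Among the members, *Uqcr10* and *Atp5g1* were the exceptions to the wider bound. Of the 14953 genes tested, 10253 had the interval inside a 1.5-fold change and 13782 inside a 2-fold change. The median interval reached 0.30 to either side of the estimate. RMA compresses the differences of dim probe sets, so these bounds apply to the measured intensities.

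**Figure D1:**
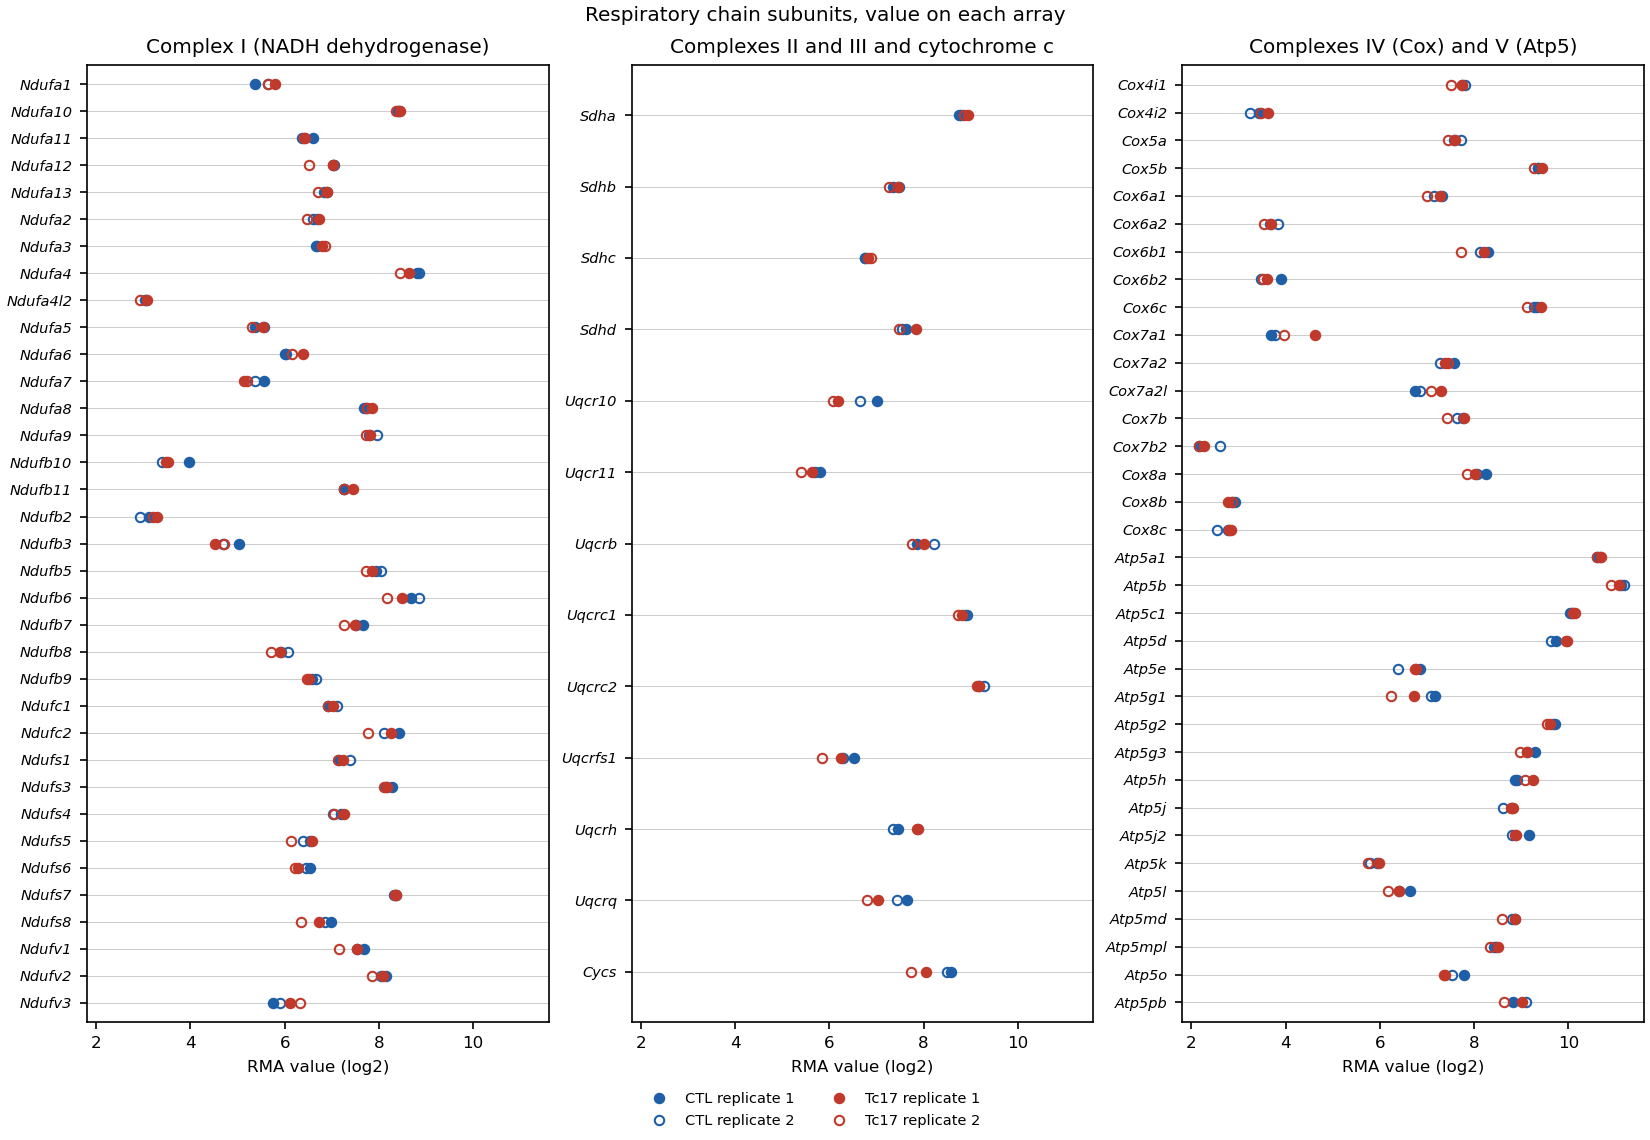
RMA value (log2, horizontal axis) of each of the 82 respiratory chain genes on each array. CTL arrays are blue, Tc17 arrays red, and filled and open symbols are replicates 1 and 2. The 4 arrays lie close together for most genes, while *Uqcr10*, *Uqcrq*, *Cycs* and *Atp5g1* are lower and *Uqcrh* is higher on both Tc17 arrays.

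Replicates did not weigh equally. Tc17 replicate 2 lay below Tc17 replicate 1 for 67 of the 81 members (82.7%), against 54.8% of all genes tested. The median of the members relative to the CTL mean was -0.01 on Tc17 replicate 1 and -0.15 on Tc17 replicate 2. Over all genes these medians were 0.02 and 0.01. CTL replicate 2 lay below CTL replicate 1 for 51 of the 81 members, against 8072 of the 14953 genes tested. The median of CTL replicate 2 minus CTL replicate 1 was -0.06 over the members and -0.02 over all genes. Without CTL replicate 1 none of the 5 members passed, with limma adjusted p-values from 0.0599 to 0.0925. Without Tc17 replicate 2 the 5 also missed the threshold (limma adjusted p-values from 0.05003 to 0.171) and *Cox7a1* alone passed.

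Promoter sequence is shown for 4 of the 5 members past the threshold, since nuclear respiratory genes are known targets of the factors NRF1, GABPA (of the ETS family) and YY1. RefSeq start sites on GRCm38.p6 gave 72 promoter windows for 67 of the 82 members, each with 250 bases before the start and 50 after it. The NRF1 letters GCATGCGC, searched on both strands as all motifs were, stood in 15.3% of these windows and in 2.71% of all 32851. The YY1 letters AAGATGGCG stood in 9.72% against 1.40%, and the ETS letters CCGGAAGT in 6.94% against 3.89%. No motif is contained in another, and *Uqcr11* is counted under both NRF1 and ETS. The 250 bases before the start, all from the minus strand, follow for *Cycs* (chr6:50566570-50566819), *Uqcrh* (chr4:116075071-116075320), *Uqcr10* (chr11:4704345-4704594) and *Atp5g1* (chr11:96075632-96075881), with matches in capitals.
Cycs: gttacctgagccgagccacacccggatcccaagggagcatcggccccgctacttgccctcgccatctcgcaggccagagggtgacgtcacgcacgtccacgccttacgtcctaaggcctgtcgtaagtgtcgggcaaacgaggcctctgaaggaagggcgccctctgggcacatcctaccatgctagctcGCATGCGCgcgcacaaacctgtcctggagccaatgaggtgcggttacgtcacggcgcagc
Uqcrh: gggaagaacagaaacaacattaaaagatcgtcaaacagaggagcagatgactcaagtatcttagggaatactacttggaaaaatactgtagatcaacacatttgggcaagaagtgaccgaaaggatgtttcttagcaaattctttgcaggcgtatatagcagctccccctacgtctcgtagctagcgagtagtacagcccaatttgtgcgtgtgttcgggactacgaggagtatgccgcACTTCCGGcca
Uqcr10: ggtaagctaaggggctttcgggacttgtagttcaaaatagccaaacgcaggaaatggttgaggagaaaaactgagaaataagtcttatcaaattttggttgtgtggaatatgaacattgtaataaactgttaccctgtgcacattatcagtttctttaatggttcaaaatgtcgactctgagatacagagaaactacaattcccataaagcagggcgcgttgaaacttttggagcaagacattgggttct
Atp5g1: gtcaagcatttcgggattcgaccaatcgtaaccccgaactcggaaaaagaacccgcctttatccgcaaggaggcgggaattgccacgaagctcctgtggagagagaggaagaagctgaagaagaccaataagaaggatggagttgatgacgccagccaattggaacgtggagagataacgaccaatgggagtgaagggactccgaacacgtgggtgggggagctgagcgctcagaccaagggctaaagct

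*Cycs* held the NRF1 letters at positions -60 to -53 from the start, and *Uqcrh* held the ETS letters on the opposite strand at -11 to -4. The windows of *Uqcr10* and *Atp5g1* held none of the 3 motifs. The 11 genes with NRF1 letters had differences from -0.64 (*Cycs*) to 0.26 (*Ndufa6*) with a median of -0.10, and 1 of them passed the test. The 7 genes with YY1 letters had a median of -0.05 and none passed (limma, 0 at an unadjusted p under 0.05). The 5 with ETS letters had a median of -0.08 and 1 passed, and the 44 tested genes without a motif had a median of -0.12 and 2 passed. Over all genes tested 15.7% passed. These letters are a description and not binding sites.

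Complex I, the entry point of electrons from NADH, showed no member past the threshold in limma among 35 tested, against 15.7% of all genes. At an unadjusted p under 0.05 there were 5, against 27.1% of all genes. The median difference of the complex was -0.09, with 27 members below 0 and 8 above, while 6939 of the 14953 genes tested lay below 0. Leaving out Tc17 replicate 2 brought the median to -0.020, and leaving out Tc17 replicate 1 to -0.15. The 6 core subunits measured, which together carry the flavin and the iron-sulfur clusters, had a median of -0.10 and none of them lay above 0. The 29 accessory subunits, which surround the core, had a median of -0.06. The arrays of the groups overlapped for 19 of the 35 members, and the Tc17 arrays lay below for 10 and above for 6. Over all genes tested they lay below for 24.8% and above for 29.6%. The lowest difference was that of *Ndufb6*, an accessory subunit of the membrane arm. It was at 8.67 and 8.85 in CTLs and at 8.48 and 8.17 in Tc17 cells, so the groups did not overlap. The difference was -0.43 ± 0.15 (log2 difference ± SE, limma adjusted p = 0.0717). It passed with an intensity trend and robust moderation (limma adjusted p = 0.0253) and without Tc17 replicate 1 (-0.59), while without Tc17 replicate 2 it was -0.28 (limma adjusted p = 0.414). The highest difference was that of *Ndufv3*, a small accessory subunit of the NADH-oxidizing module. It was at 5.75 and 5.91 in CTLs and at 6.11 and 6.33 in Tc17 cells, a difference of 0.40 ± 0.14 (limma adjusted p = 0.0785). Of the core subunits, *Ndufs8*, which binds a pair of iron-sulfur clusters, was at 6.98 and 6.85 in CTLs and at 6.73 and 6.36 in Tc17 cells (-0.37 ± 0.15, limma adjusted p = 0.131). It was -0.56 and passed without Tc17 replicate 1, and -0.19 without Tc17 replicate 2 (limma adjusted p = 0.625). *Ndufs7*, which holds the last iron-sulfur cluster before ubiquinone, was at 8.33 and 8.37 in CTLs and 8.34 and 8.35 in Tc17 cells. Its 95% interval ran from -0.28 to 0.28.

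*Ndufa4* was first named as a complex I subunit and has since been placed in complex IV. By their symbols, *Ndufa4* and *Ndufa4l2* are counted here among the accessory subunits of complex I. *Ndufa4* was at 8.81 and 8.86 in CTLs and at 8.63 and 8.45 in Tc17 cells. The groups did not overlap, but the difference of -0.30 ± 0.13 did not pass (limma adjusted p = 0.168). Its hypoxia-induced relative *Ndufa4l2* lay between 2.93 and 3.07 on the 4 arrays, under the array medians. Its difference was -0.04 ± 0.13, with overlap.

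Complex II, succinate dehydrogenase, is the member of the chain that is also an enzyme of the tricarboxylic acid cycle and has no mitochondrially encoded subunit. None of its 4 genes passed in limma, and 0 did at an unadjusted p under 0.05. The flavoprotein gene *Sdha* was at 8.75 and 8.79 in CTLs and at 8.94 and 8.85 in Tc17 cells (0.12 ± 0.13). The iron-sulfur subunit gene *Sdhb* was at 7.34 and 7.49 against 7.46 and 7.26 (-0.05 ± 0.14). Of the membrane anchors, *Sdhc* was at 6.76 and 6.76 against 6.83 and 6.88 (0.09 ± 0.13), and *Sdhd* at 7.63 and 7.54 against 7.85 and 7.49 (0.09 ± 0.15). All 4 intervals lay inside a 1.5-fold change. Their limma adjusted p-values ran from 0.622 to 0.869. The median of 0.09 became -0.01 without Tc17 replicate 1.

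Complex III, which passes electrons from ubiquinol to cytochrome c, held 3 of the 5 members past the threshold, 1 higher and 2 lower. These are 3 of its 8 genes, against 15.7% of all genes tested. The median difference of the complex was -0.20. Of its 8 genes 7 lay below 0, as did 6939 of the 14953 genes tested. Leaving out Tc17 replicate 2 gave a median of -0.090, and leaving out Tc17 replicate 1 gave -0.32. *Uqcr10*, a small subunit of the membrane part, was at 7.01 and 6.65 in CTLs and at 6.18 and 6.08 in Tc17 cells. This is 1.62-fold lower, with a difference of -0.70 ± 0.15 and a 95% interval from -1.02 to -0.37 (limma adjusted p = 0.00790). *Uqcrq*, a small subunit that contacts cytochrome b, was at 7.65 and 7.43 in CTLs and at 7.02 and 6.81 in Tc17 cells. It was 1.54-fold lower (-0.63 ± 0.14, limma adjusted p = 0.0111). Both Tc17 arrays were lower than both CTL arrays for either gene. Neither passed without CTL replicate 1 (-0.52 for both) or without Tc17 replicate 2 (-0.65 and -0.52), where the limma adjusted p-values were 0.05003 for *Uqcr10* and 0.0895 for *Uqcrq*.

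*Uqcrh* went the other way. This gene encodes the acidic hinge protein at the docking face of cytochrome c. It was at 7.45 and 7.36 in CTLs and at 7.89 and 7.86 in Tc17 cells, 1.38-fold higher (0.47 ± 0.13, limma adjusted p = 0.0279). The call was lost without any single array, at a difference of 0.42 to 0.52. The Rieske iron-sulfur protein gene *Uqcrfs1* was at 6.53 and 6.29 in CTLs and 6.24 and 5.85 in Tc17 cells, without overlap (-0.36 ± 0.16, limma adjusted p = 0.168). The large core protein genes *Uqcrc1* and *Uqcrc2* differed by -0.13 ± 0.13 and -0.07 ± 0.13. The small subunit genes *Uqcr11* and *Uqcrb* differed by -0.22 ± 0.14 and -0.17 ± 0.16. The subunit genes of this complex therefore lay on both sides of 0 among those that passed. Whether complex III differs from the other complexes was not tested.

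*Cycs*, which encodes the cytochrome c of somatic cells, an electron carrier and a trigger of apoptosome assembly, was lower in Tc17 cells. It was at 8.58 and 8.50 in CTLs and at 8.06 and 7.74 in Tc17 cells. The groups did not overlap, and the level was 1.56-fold lower (-0.64 ± 0.14, limma adjusted p = 0.0105). A second probe set gave -0.62, while another, dim on all arrays (2.59 to 3.04), gave 0.13. With the mean of all 3 the difference was -0.38 and missed the threshold (limma adjusted p = 0.0680). Without Tc17 replicate 2 it was -0.48 (limma adjusted p = 0.0975), and without CTL replicate 1 it was -0.60 (limma adjusted p = 0.0599).

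**Figure D2:**
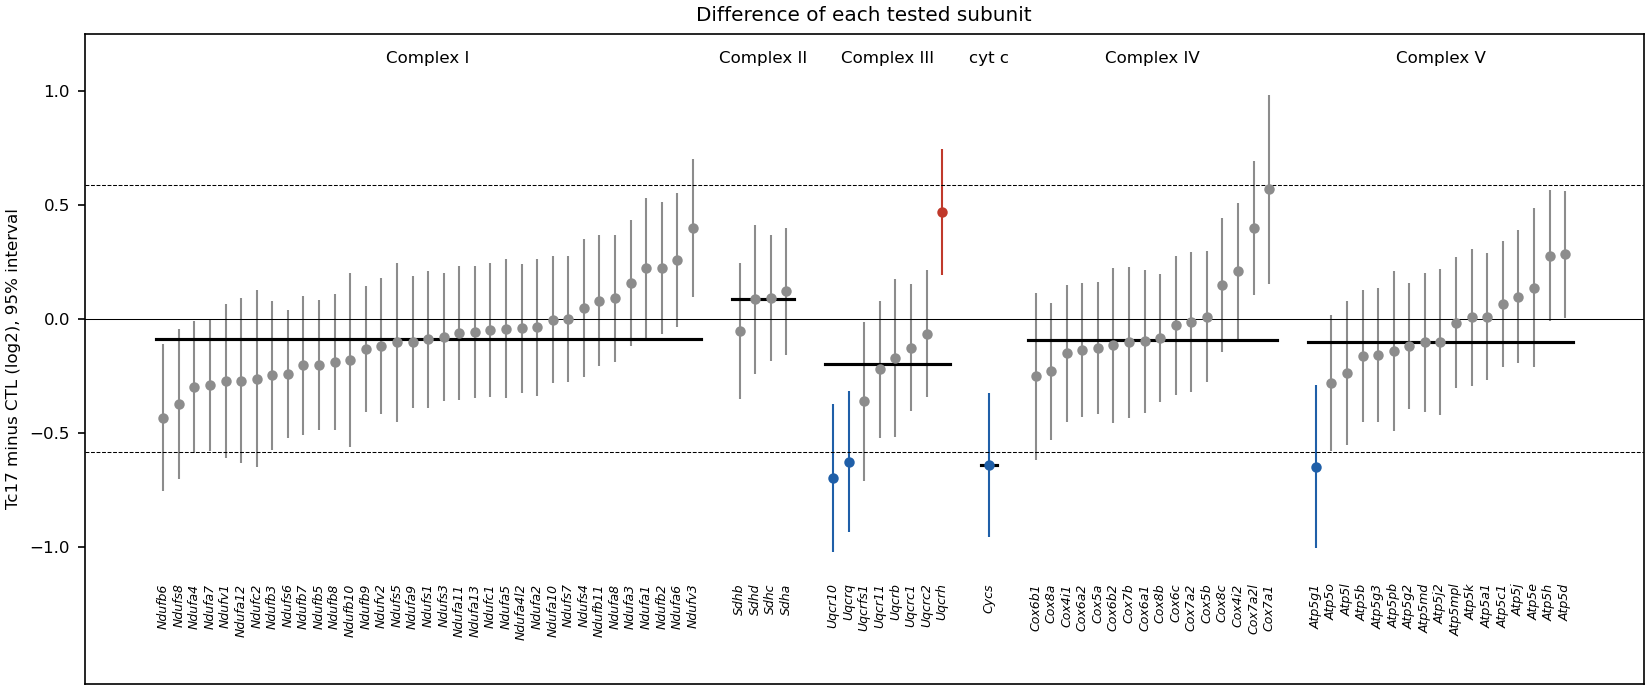
Log2 difference between Tc17 and CTL (vertical axis) of each tested subunit, ordered within its complex, with the 95% interval of the limma fit. Red marks a gene higher and blue a gene lower at an adjusted p under 0.05, grey the others. Black bars are medians and dashed lines a 1.5-fold change. Complex III spans -0.70 (*Uqcr10*) to 0.47 (*Uqcrh*), while complex II stays between -0.05 and 0.12.

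Complex IV, cytochrome c oxidase, had no member past the threshold in limma among 16 tested, against 15.7% of all genes. At an unadjusted p under 0.05 there were 2, against 27.1% of all genes. The median of the complex was -0.09, and the sign of this median turned without Tc17 replicate 2 (0.02). Of the subunits expressed in most tissues, *Cox4i1* was at 7.74 and 7.81 in CTLs and at 7.75 and 7.50 in Tc17 cells (-0.15 ± 0.14). *Cox6a1* differed by -0.10 ± 0.14, *Cox6b1* by -0.25 ± 0.17, *Cox7a2* by -0.01 ± 0.14, *Cox7b* by -0.10 ± 0.15 and *Cox8a* by -0.23 ± 0.14. The limma adjusted p-values of these 6 genes ran from 0.325 to 0.972. The 5 probe sets shared by *Cox7c* or *Ndufb4* with a second gene had differences from -0.24 to -0.14.

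Apart from *Cox7a1*, the isoforms known from other tissues had values of at most 3.90 on the log2 scale, where RMA compresses differences. Such low values were not confined to these isoforms. The complex I genes *Ndufb10* and *Ndufb2* lay between 3.40 and 3.97 and between 2.935 and 3.29. *Cox4i2*, the form induced by low oxygen, was between 3.23 and 3.61 on the 4 arrays. *Cox6a2* and *Cox8b*, forms of heart and skeletal muscle, lay between 3.54 and 3.83 and between 2.77 and 2.93. The testis forms *Cox6b2* and *Cox8c* lay between 3.47 and 3.90 and between 2.55 and 2.83, and *Cox7b2* (2.16 to 2.60) was left out by the filter on dim genes. Differences of the 5 genes tested ran from -0.14 (*Cox6a2*) to 0.21 (*Cox4i2*). None of the 5 passed in limma (0 at an unadjusted p under 0.05).

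*Cox7a1*, the muscle form of subunit 7a, had the highest difference of complex IV, with Tc17 arrays far apart. It was at 3.69 and 3.77 in CTLs and at 4.62 and 3.97 in Tc17 cells, a difference of 0.57 ± 0.19 (limma adjusted p = 0.0675). It was 0.89 and passed without Tc17 replicate 2, and 0.24 without Tc17 replicate 1 (limma adjusted p = 0.422). It also passed with genes under the median left out. The groups did not overlap. *Cox7a2l*, whose product helps tie complexes III and IV into supercomplexes, was at 6.74 and 6.85 in CTLs and at 7.30 and 7.09 in Tc17 cells, again without overlap (0.40 ± 0.13, limma adjusted p = 0.0718). It passed with an intensity trend and robust moderation (limma adjusted p = 0.0473), after cyclic loess (0.45) and with the mean of its 2 probe sets (0.46, limma adjusted p = 0.0374), but without any single array it did not (0.29 to 0.50). The ubiquitous *Cox7a2* was at 7.56 and 7.28 against 7.38 and 7.44, with overlap.

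Complex V, the ATP synthase, had 1 member past the threshold among 17 tested, against 15.7% of all genes. The median difference of the complex was -0.10. The 5 genes of F1, which is the catalytic head with the central stalk, had a median of 0.07. *Atp5a1* and *Atp5b*, which encode the α and β chains, differed by 0.01 ± 0.13 and -0.16 ± 0.13. *Atp5d*, the δ chain, was the highest of the complex, at 9.73 and 9.63 in CTLs and 9.95 and 9.98 in Tc17 cells (0.28 ± 0.13, limma adjusted p = 0.177). It passed with an intensity trend and robust moderation, but did not pass when any single array was left out (0.24 to 0.33). The 12 genes of the peripheral stalk and the membrane part had a median of -0.11. Without Tc17 replicate 2 the median of the complex was 0.05.

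The ring of c subunits, through which protons pass, is encoded by 3 genes whose mature proteins are the same and whose import sequences differ. *Atp5g1* was at 7.16 and 7.08 in CTLs and at 6.72 and 6.23 in Tc17 cells, 1.57-fold lower (-0.65 ± 0.16, limma adjusted p = 0.0198). Its second probe set gave -0.52. *Atp5g2* was at 9.73 and 9.66 against 9.60 and 9.55 (-0.12 ± 0.13, limma adjusted p = 0.624), and *Atp5g3* at 9.29 and 9.13 against 9.13 and 8.98 (-0.16 ± 0.13, limma adjusted p = 0.523). The 3 genes thus all lay below 0, and the difference between *Atp5g1* and the other two was not tested. The *Atp5g1* call was lost without any array but Tc17 replicate 1, at -0.61 without CTL replicate 1, -0.69 without CTL replicate 2 and -0.41 without Tc17 replicate 2 (limma adjusted p = 0.171).

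**Figure D3:**
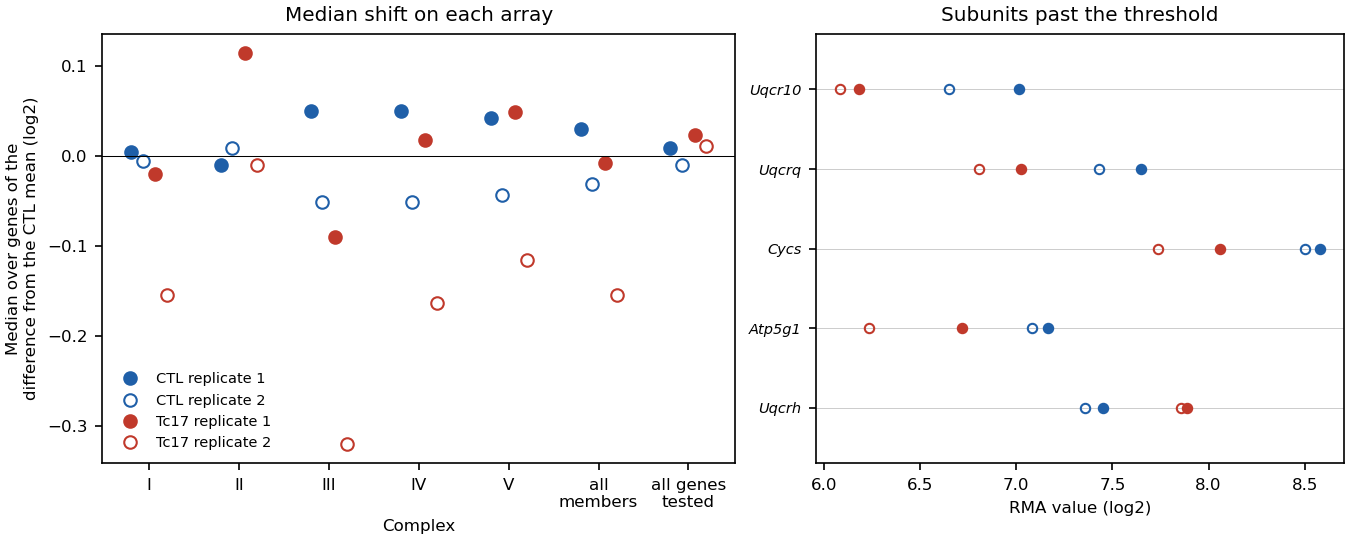
On the left is the median over genes of the difference from the CTL mean (log2, vertical axis) on each array for complexes I to V, all members and all genes tested. On the right are RMA values (log2, horizontal axis) of the 5 members past the threshold. Colours and symbols stand for groups (CTL blue, Tc17 red) and replicates (1 filled, 2 open). Tc17 replicate 2 is the lowest array for complexes I, III, IV and V, at -0.15, -0.32, -0.16 and -0.11.

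Subunits from mitochondrial DNA were measured for 2 of 13 genes. *COX2*, a catalytic subunit gene of complex IV, was at 11.29 and 11.38 in CTLs and at 11.48 and 11.28 in Tc17 cells (0.04 ± 0.13, limma adjusted p = 0.892). *ND3* of complex I was at 9.43 and 9.36 against 9.54 and 9.31 (0.03 ± 0.13, limma adjusted p = 0.937). Both overlapped between the groups and neither passed in limma, with 0 at an unadjusted p under 0.05. Of nuclear subunits not covered by the symbol rule, *Cyc1*, the cytochrome c1 gene of complex III, differed by -0.21 ± 0.13 (limma adjusted p = 0.330). *Ndufab1*, the mitochondrial acyl carrier protein of complex I, was lower, at 7.31 and 7.19 in CTLs against 6.92 and 6.30 in Tc17 cells (-0.64 ± 0.18, limma adjusted p = 0.0353). This call did not hold without either CTL replicate (-0.58 and -0.70), without Tc17 replicate 2 (-0.34), without the filter on dim genes and after cyclic loess.

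Genes that build and supply the chain, and subunits outside the symbol rule, were taken from 12 lists. Of 107 tested, 6 were higher and 17 lower in Tc17 cells, which is 21.5% against 15.7% of all genes. Their median was -0.16. Of all genes tested, 8.22% were higher and 7.44% lower. The subunit genes *COX2*, *ND3*, *Cyc1* and *Ndufab1* are among the 107, with *Ndufab1* among the lower ones. The 6 higher ones include *Sqor*, which was tested only through its Tc17 values. The lists were written with earlier results of these data known, and the difference from the members was not tested. The differences furthest from 0 were those of *Cox17* and *Sco1*. *Cox17*, the copper chaperone of the intermembrane space, was at 7.23 and 6.96 in CTLs and at 6.03 and 5.82 in Tc17 cells, 2.25-fold lower (-1.17 ± 0.14, limma adjusted p = 2.78e-04). *Sco1*, which takes copper from COX17 and hands it to the COX2 protein, was at 6.35 and 6.36 in CTLs and at 5.35 and 5.19 in Tc17 cells, 2.11-fold lower (-1.08 ± 0.13, limma adjusted p = 2.32e-04). Both kept their call in all 13 alternatives run.

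Of 18 complex IV assembly genes tested, 4 were lower and 1 higher, which is 27.8% against 15.7% of all genes. Beside *Cox17* and *Sco1* the lower ones were *Cox18*, an inserter of the COX2 protein (-0.44 ± 0.13, limma adjusted p = 0.0432), and *Lrpprc*, which stabilises mitochondrial messages (-0.50 ± 0.13, limma adjusted p = 0.0211). *Cox18* missed the threshold without any single array (-0.54 to -0.35) and *Lrpprc* without any array but CTL replicate 2 (-0.52 to -0.44). The higher one was *Cox20*, a chaperone of the COX2 protein, at 5.28 and 5.08 in CTLs and 6.11 and 5.68 in Tc17 cells (0.72 ± 0.16, limma adjusted p = 0.0109). It missed the threshold without CTL replicate 2 (0.62) or Tc17 replicate 1 (0.50). Of 14 complex I assembly factors, 3 were lower and 2 higher, which is 35.7%. *Ndufaf4* (-0.69 ± 0.15) and *Ecsit* (-0.47 ± 0.13) lay lowest, and *Tmem126b* (0.49 ± 0.13) and *Ndufaf3* (0.46 ± 0.13) highest, with limma adjusted p-values of at most 0.0345. Each of these 4 calls was lost without CTL replicate 1 or without Tc17 replicate 1, at -0.64 and -0.51 for *Ndufaf4*, -0.53 and -0.51 for *Ecsit*, 0.48 and 0.37 for *Tmem126b* and 0.38 and 0.42 for *Ndufaf3*. Without CTL replicate 2 only *Ndufaf4* passed of the 4. The other lower factor, *Ndufaf2*, was at -0.41 ± 0.13 (limma adjusted p = 0.0486) and did not pass without any single array (-0.45 to -0.37). None of the 4 factors of complex II, the 5 of complex III or the 5 of complex V passed in limma, with 0, 3 and 0 at an unadjusted p under 0.05. The genes with the smallest p in these lists were *Sdhaf1* (-0.22 ± 0.15), *Bcs1l* (0.32 ± 0.13) and *Fmc1* (-0.24 ± 0.13).

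Of 15 regulators of mitochondrial gene expression and DNA copying, 3 were lower and none higher, which is 20% against 15.7% of all genes. *Pprc1*, a coactivator of the PGC-1 family induced by growth signals, was at 6.79 and 6.55 in CTLs and at 5.96 and 5.53 in Tc17 cells (-0.93 ± 0.16, limma adjusted p = 0.00260). *Tfam*, which packages and transcribes mitochondrial DNA, was at 5.65 and 6.17 against 5.29 and 4.89 (-0.82 ± 0.19, limma adjusted p = 0.0124). Its call was lost without CTL replicate 2 (-0.56) or Tc17 replicate 2 (-0.62). *Ssbp1*, the single-strand binding protein of mitochondrial DNA, was the third (-0.44 ± 0.13, limma adjusted p = 0.0361), and its call was lost without any single array (-0.47 to -0.41). Of 13 tricarboxylic acid cycle genes, *Suclg2* (-0.61 ± 0.14), *Fh1* (-0.61 ± 0.15), *Dld* and *Idh3a* were lower and none higher, with limma adjusted p-values of at most 0.0402. These 4 are 30.8% of the list, against 15.7% of all genes, and the median of the list was -0.34. Without CTL replicate 2 or Tc17 replicate 2 none of these 4 passed, at -0.46 and -0.54 for *Suclg2*, -0.51 and -0.45 for *Fh1*, -0.54 and -0.47 for *Dld* and -0.49 and -0.32 for *Idh3a*.

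Of 8 genes of other routes by which electrons reach ubiquinone, 1 was lower and 2 were higher, which is 37.5% against 15.7% of all genes. In limma, 6 were at an unadjusted p under 0.05, and the median was -0.33. *Gpd2*, the mitochondrial glycerol-3-phosphate dehydrogenase, was at 6.79 and 6.42 in CTLs and at 5.73 and 5.84 in Tc17 cells (-0.82 ± 0.15, limma adjusted p = 0.00320). *Etfdh*, which feeds in electrons from fatty acid oxidation, was at 7.05 and 7.32 against 7.81 and 7.81 (0.62 ± 0.14, limma adjusted p = 0.00974), and did not pass without CTL replicate 1 (0.49). *Sqor*, the sulfide-oxidizing enzyme, was at 2.48 and 2.22 in CTLs and at 3.07 and 3.51 in Tc17 cells. It counted as higher, but both CTL values lay under the filter level of 2.59 and the gene was tested only through its Tc17 values, so no fold is given. *Etfa* and *Etfb*, which encode the flavoprotein that passes electrons to the product of *Etfdh*, differed by -0.37 ± 0.16 and -0.44 ± 0.15, and *Dhodh*, the dehydrogenase of pyrimidine synthesis, by -0.48 ± 0.17. These 3 did not pass (limma adjusted p = 0.160, 0.0713 and 0.0874). Of 10 genes of coenzyme Q synthesis, *Coq7* was lower (-0.58 ± 0.14, limma adjusted p = 0.0170) and none was higher, which is 10%. *Coq7* missed the threshold without CTL replicate 1 (-0.54) or Tc17 replicate 2 (-0.43). Of 11 carriers and inner membrane organisers, *Slc25a4*, an exchanger of ADP and ATP, was higher (0.43 ± 0.13, limma adjusted p = 0.0418). None was lower, so that 9.09% of this list was called, by *Slc25a4* alone. This call was lost without any single array (0.39 to 0.47) and with the replicate number as a block (limma adjusted p = 0.0550).

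**Figure D4:**
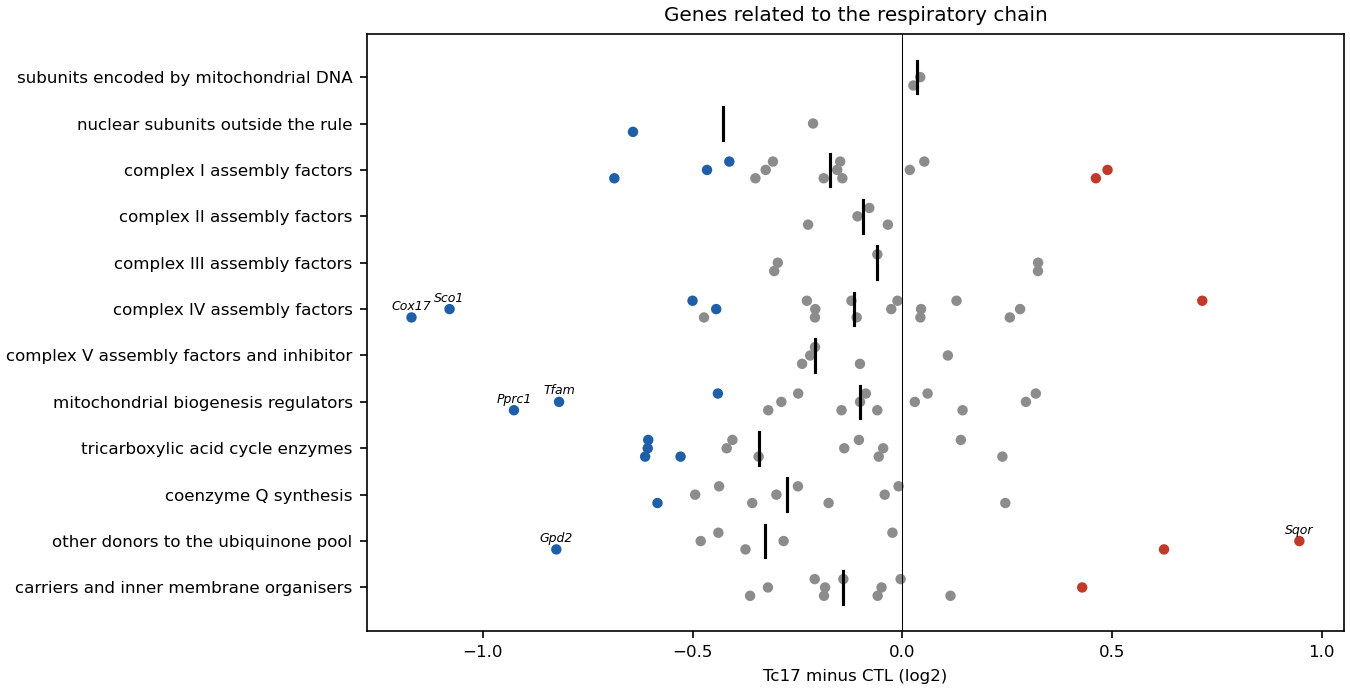
Log2 difference between Tc17 and CTL (horizontal axis) of each tested gene in 12 lists related to the respiratory chain. Genes past the threshold are red where higher and blue where lower in Tc17 cells, the others are grey, and black bars are medians. Vertical offsets within a list only separate the points. *Cox17* (-1.17) and *Sco1* (-1.08) lie furthest to the left.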

How the data were processed

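Transcript levels of 4 cultures of mouse CD8+ T cells were measured on 1-colour Affymetrix whole-transcript arrays, with RNA amplified in 2 rounds of cDNA synthesis per the labels. The authors deposited values processed with RMA (background correction, quantile normalisation between arrays, summary of each probe set). The deposited values were used as log2 intensities. Their range, 1.18 to 13.70, fits this, but log base, RMA version and settings were not given in the sources used here. Quantile normalisation hides a shift of all transcripts. Precision is limited by the number of arrays. No detection calls were used.

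Of 35557 rows, 21789 had 1 gene symbol in the platform annotation, giving 19938 genes. The brightest probe set was kept for each gene, 17 of the 82 members having several, and processed pseudogenes or near-identical copies may share signal. Genes with a mean under the 25th percentile (2.59) were left out, so that 14953 were tested and 1 member (*Cox7b2*) was not. The contrast of Tc17 with CTL was fitted by limma 3.58.1 under R 4.3.3 with eBayes moderation, two-sided, with Benjamini-Hochberg adjustment over all genes tested, a threshold of 0.05 and 2 residual degrees of freedom beside a prior of 8.98. The fit was also run on simulated data with independent noise and variances drawn from its own prior. Such data cannot show how the fit behaves on these arrays. An exact permutation test of 2 against 2 arrays cannot give a p under 0.333.

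The members and lists were chosen with earlier results of these data known. The genes named were every member past the threshold, the highest and lowest of each complex, isoform families, all succinate dehydrogenase genes and *Cycs*, and from each related list up to 2 genes in each direction past the threshold or that with the smallest p; others were chosen after their values were seen. Gene identifiers of all 82 members matched the RefSeq gene table, which changed 0 symbols. Genes of the lists without a probe set of their own were not analysed here. In the alternatives the filter was dropped or set to the median gene, the fit used robust moderation with an intensity trend, arrays were normalised by cyclic loess or centred on their medians, probe sets of a gene were averaged, every row was tested, the replicate number was a block, RefSeq symbols were used, and each array was left out in turn. A lone sample then takes its spread from the remaining group. Python 3.11.15 with pandas 2.3.3 and matplotlib 3.10.9 made the tables and figures.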

Additional observations from a re-analysis of the deposited data

How the results depend on the processing

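The count of respiratory chain members past the threshold was 5 as reported, 8 with an intensity trend and robust moderation, 0 when every row of the table was tested, and from 0 (without CTL replicate 1) to 6 (without Tc17 replicate 1) when an array was left out. Members higher numbered 2 with a filter at the median gene, 2 after cyclic loess, 2 with the mean of probe sets, 3 with an intensity trend and 0 with every row, and 0 to 1 without an array. Members lower numbered 0 with every row and 0 to 6 without an array. The count over all genes was 684 with every row, where more rows are tested, and 1421 to 1924 without an array. Related genes past the threshold numbered 2 with every row and 9 to 20 without an array. With genes under the median left out, 7.79% of members and 24.8% of genes passed. The medians of complexes I to V without an array ran from -0.15 to -0.02, from -0.0094 to 0.11, from -0.32 to -0.090, from -0.16 to 0.02 and from -0.11 to 0.049, so only those of complexes I and III kept their sign. After cyclic loess the medians of complexes I to IV were -0.049, 0.14, -0.17 and -0.042, against -0.089, 0.089, -0.20 and -0.091 as reported. Among named genes that did not pass, the sign turned after cyclic loess for *Cox7a2* (0.046), *Ndufs7* (0.056) and *Sdhb* (0.0074). It also turned when an array was left out for *Atp5a1* (-0.031 to 0.052), *COX2* (-0.058 to 0.14), *Cox6a1* (-0.24 to 0.043), *Cox6b2* (-0.33 to 0.097), *Cox7a2* (-0.15 to 0.13), *Cox7b* (-0.29 to 0.085), *ND3* (-0.086 to 0.14), *Ndufa4l2* (-0.11 to 0.032), *Ndufs7* (-0.020 to 0.020), *Sdhb* (-0.15 to 0.049) and *Sdhd* (-0.096 to 0.27). The causes were not tested.

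The labels do not say whether same-numbered arrays share more than a number. Over all genes tested, the correlation of their deviations from the group means was 0.02. With the replicate number as a block 5 members and 2322 genes passed, the same 5 members as without it. Of the named genes, *Cox18*, *Ndufaf2* and *Slc25a4* lost their call under the block (limma adjusted p = 0.0551, 0.0630 and 0.0550), and *Dhodh* and *Etfb* gained one (0.0454 and 0.0495).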
